A study of Mus musculus with 18 samples.

Results

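The 34 genes described here encode the enzymes and carriers of glycolysis, the enzymes and a regulatory subunit of glycogen synthesis, the oxygen-sensing factor HIF-1 alpha with its hydroxylases, and a group of transcripts that low oxygen is known to induce. They were taken by gene symbol from the 45777 gene lines of the count matrix. The rule uses no measured value, but the genes were chosen with earlier results of these data known. Shares called among them therefore describe the list and are not an independent test. All 34 were found and all 34 were among the 18848 genes with enough counts to be tested. By role they comprise 2 carriers for glucose entry and lactate export, 9 genes of the preparatory phase of glycolysis, 7 of its payoff phase with lactate dehydrogenase, 2 regulators of glycolytic flux, 3 glycogen genes, 3 genes for HIF-1 alpha and its prolyl hydroxylases, and 8 other hypoxia-inducible genes.

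Poly(A) RNA of whole mouse colon was sequenced from 18 libraries, 3 in each of 6 groups, with replicate letters A, B and C. The genotypes were DKO (Lao1-/- Il4i1-/-), LAO1KO (Lao1-/-) and wild type (WT), and the drinking water either carried 2.5% dextran sulfate sodium (DSS) for 24 hours or was plain sterile water. Both genes code for L-amino acid oxidases, which strip the amino group from amino acids and make hydrogen peroxide, and DSS is a sulfated polysaccharide that injures the colonic epithelium. All 6 groups shared the germ-free state, the C57BL/6J background, male sex and an age of 8 weeks. The labels write both knockouts as -/- and do not say how they were made or which exons are missing, and a germ-free colon lacks the bacterial butyrate that colonocytes otherwise burn. The comparisons ask what a day of DSS does to these transcripts, whether loss of 1 or both oxidases alters them, and whether genotype alters the response to DSS.

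Glycolysis splits glucose into pyruvate, first spending ATP on phosphorylation by hexokinase and phosphofructokinase and then regaining it at phosphoglycerate kinase and pyruvate kinase, and lactate dehydrogenase turns pyruvate into lactate. Glycogen synthase and the branching enzyme store glucose as glycogen. The colonic epithelium of animals with gut bacteria lies next to an oxygen-poor lumen and is known for a physiological hypoxia. The mice here were germ-free, and the labels give no oxygen level for their colons. When oxygen falls, the prolyl hydroxylases encoded by the Egln genes no longer mark HIF-1 alpha for destruction by the VHL ubiquitin ligase, and HIF-1 switches on most glycolytic genes, Gys1, Gbe1 and genes such as Vegfa and P4ha1 through hypoxia response elements. HIF-1 alpha is regulated mainly as a protein, so its mRNA is a poor measure of its activity.

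The libraries held 26003174 to 36553193 counts. Values are CPM, counts scaled to a common library size with TMM factors, and fold changes are log2 values with standard errors (SE) from edgeR's quasi-likelihood fit to all 18 libraries. A gene was called when its p adjusted over all 18848 genes was under 0.05. In counts summed over Il4i1 and its copy Il4i1b, 5 of 6 DKO libraries were at 0, against 12 to 66 in LAO1KO and 25 to 57 in WT libraries. The other, DKO DSS B, had 12, the same count as LAO1KO DSS C, so its Il4i1 label is less sure. Lao1 was nearly silent, with 0 to 10 counts in DKO libraries (32 in all), 0 to 10 in LAO1KO libraries (31 in all) and 0 to 4 in WT libraries (6 in all). Its counts were thus not lower in the knockouts and run against the Lao1 label as far as so few counts go, the missing exons are not stated, and the genotypes are given as labelled. Libraries differed within groups: on the first principal component of all tested genes, WT water B (84.2) and LAO1KO water A (65.5) lay highest and LAO1KO DSS B (-46.2) and DKO DSS B (-42.2) lowest. Transcripts encoded by mitochondrial DNA took 14.3 to 44.9% of counts under DSS and 6.89 to 20.7% under water, and in WT the ranges were apart, at 26.1 to 44.9% under DSS and 6.89 to 9.08% under water.

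Under DSS more of the glycolysis, glycogen and hypoxia genes fell than rose. Averaged over the 3 genotypes, 10 of the 34 fell, 1 rose and 23 did not pass the test. Among all tested genes 15.9% were called, 6.72% higher and 9.18% lower, and the 11 called members make up 32.4% of the 34. The median log2 fold change was -0.22 over the members and 0.03 over all tested genes, and 25 of the 34 estimates were below 0. Gbe1, P4ha1, Ldha, Pgk1, Pgam1, Gys1, Pkm, Pfkl, Pfkp and Egln1 fell and Pfkm rose. Leaving out any 1 of the 18 libraries kept the first 9 of these genes called, whereas Pfkm was called in 10 and Egln1 in 6 of those 18 fits. DESeq2 called 15 of the 34 in this comparison and limma voom with library weights 19, against 21.2% and 33% of all genes.

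**Figure D1:**
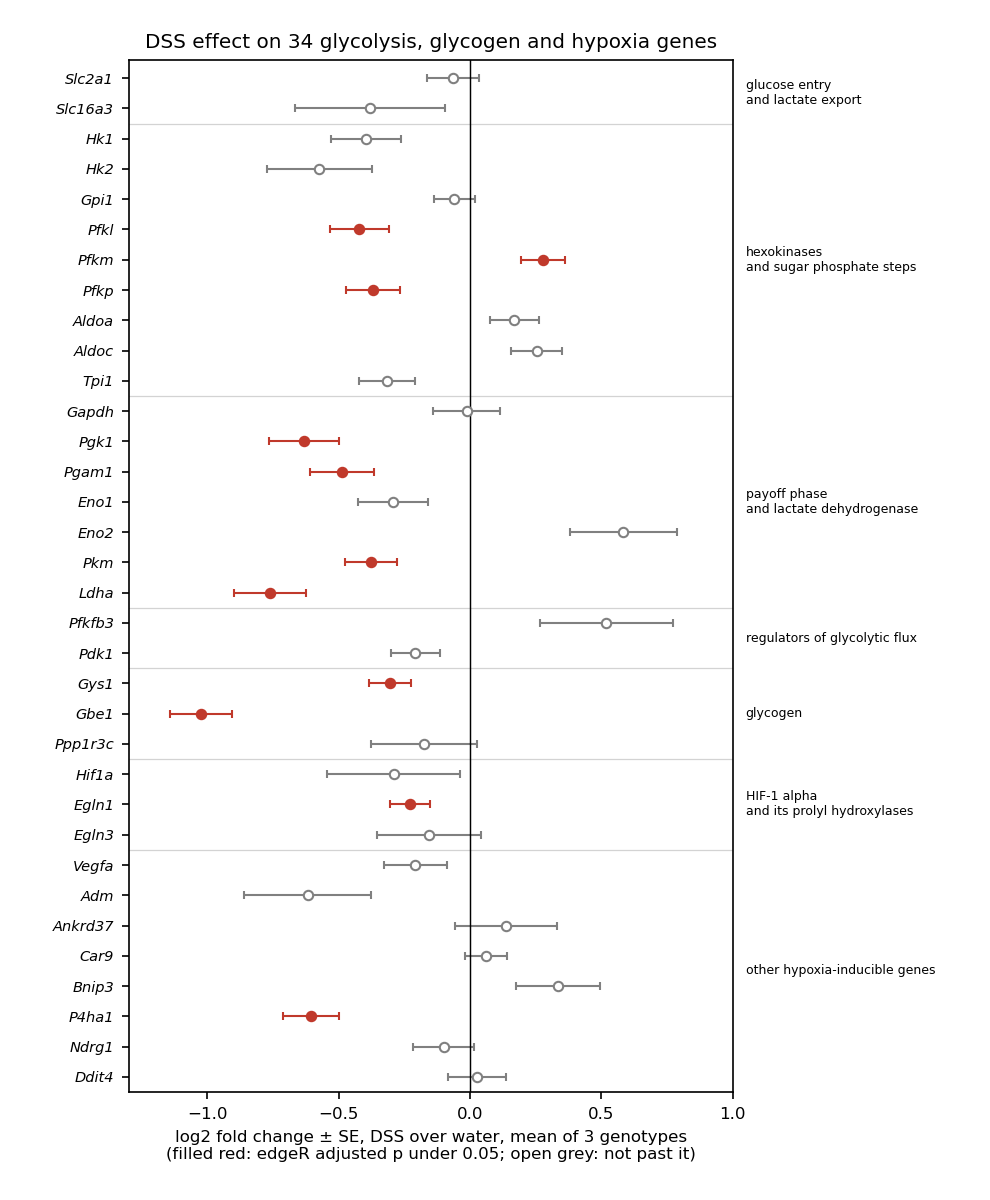
Log2 fold change of DSS over water, averaged over DKO, LAO1KO and WT, for the 34 genes grouped by role, with bars of 1 SE from edgeR's fit to 18 libraries. The filled points are the 11 genes with an adjusted p under 0.05, of which Gbe1 lies farthest to the left at -1.03 and Pfkm is the 1 gene to the right of 0.

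The carriers at both ends of the pathway did not pass the test. Slc2a1, the glucose transporter GLUT1, spanned 87.5 to 176 CPM over the 18 libraries, and its DSS difference was -0.06 ± 0.10 (SE, edgeR adjusted p = 0.691). Slc16a3, the lactate exporter MCT4 that HIF-1 is known to induce, was scarce, with lowest, median and highest values of 1.39, 2.88 and 5.38 CPM in the 9 DSS libraries and 1.86, 2.59 and 13.4 CPM in the 9 water libraries. Its highest value came from WT water B, and its difference was -0.38 ± 0.29 (SE, edgeR adjusted p = 0.379).

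In the preparatory phase the phosphofructokinase genes split by isoform. Phosphofructokinase commits sugar to glycolysis, and its liver type Pfkl and platelet type Pfkp, the more abundant forms here, fell, whereas the muscle type Pfkm rose. Pfkl stood at 138, 89.3 and 98.6 CPM in DKO mice on DSS, against 140.2, 138 and 116 CPM in DKO mice on water. In LAO1KO colon Pfkl had 121, 85.3 and 131 CPM under DSS, against 159, 135 and 155 CPM under water. In WT colon Pfkl had 135, 124 and 132 CPM under DSS, against 215, 229 and 139 CPM under water. All DSS values lay below all water values in LAO1KO and WT, and the DKO values overlapped through DKO DSS A. The averaged Pfkl difference was -0.42 ± 0.11 (SE, edgeR adjusted p = 0.0187). Pfkp stood at 194, 139.6 and 147 CPM in DKO mice on DSS, against 226, 179 and 211 CPM in DKO mice on water. In LAO1KO colon Pfkp had 156, 133 and 204 CPM under DSS, against 198, 204 and 222 CPM under water. In WT colon Pfkp had 191, 185 and 185 CPM under DSS, against 245, 306 and 196 CPM under water. In WT every DSS library lay below every water library, both knockouts overlapped, and the averaged Pfkp difference was -0.37 ± 0.10 (SE, edgeR adjusted p = 0.0222). Pfkm stood at 15.9, 22.6 and 18.7 CPM in DKO mice on DSS, against 11.7, 14.6 and 13.5 CPM in DKO mice on water. In LAO1KO colon Pfkm had 17.3, 20.4 and 15.8 CPM under DSS, against 13.8, 14.5 and 13.5 CPM under water. In WT colon Pfkm had 16.0, 17.7 and 15.7 CPM under DSS, against 17.0, 18.3 and 15.6 CPM under water. The DKO and LAO1KO libraries were higher under DSS without overlap, while the WT values overlapped. The averaged Pfkm difference was 0.28 ± 0.08 (SE, edgeR adjusted p = 0.0312), and it was no longer called without any 1 of WT DSS A, WT DSS B, LAO1KO DSS B, LAO1KO water A, LAO1KO water C, DKO DSS B, DKO DSS C or DKO water A, with differences of 0.22 to 0.28 in those fits. Per kilobase of annotated exon, the mean level over 18 libraries was 20.6 CPM for Pfkl, 14.6 for Pfkp and 4.87 for Pfkm.

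The other preparatory genes did not pass the averaged test. Hexokinase traps glucose as its phosphate, and both of its listed genes had estimates below 0, at -0.40 ± 0.13 (SE, edgeR adjusted p = 0.0511) for Hk1 and -0.57 ± 0.20 (SE, edgeR adjusted p = 0.0611) for Hk2. Triose phosphate isomerase, Tpi1, came close at -0.32 ± 0.11 (SE, edgeR adjusted p = 0.0505). Hk1, Hk2 and Tpi1 were called in 3, 3 and 7 of the 18 fits without 1 library. Gpi1, which interconverts glucose and fructose phosphates, gave -0.06 ± 0.08 (SE). Both aldolase genes, whose enzyme cleaves fructose bisphosphate, had estimates above 0, at 0.17 ± 0.09 (SE, edgeR adjusted p = 0.216) for Aldoa and 0.25 ± 0.10 (SE, edgeR adjusted p = 0.0842) for Aldoc. Aldoa was among the most abundant members, with lowest, median and highest values of 899.9, 1063 and 1362 CPM under DSS and 841, 917 and 1212 CPM under water.

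In the payoff phase 4 of 7 genes fell and 0 rose. Ldha, the lactate dehydrogenase subunit that favours lactate formation, Pgk1, the first ATP-yielding kinase of the pathway, Pgam1, a phosphoglycerate mutase, and Pkm, pyruvate kinase, fell. Ldha stood at 688, 479 and 553 CPM in DKO mice on DSS, against 1027, 931 and 846 CPM in DKO mice on water. In LAO1KO colon Ldha had 672, 453 and 886 CPM under DSS, against 1537, 971 and 1139.8 CPM under water. In WT colon Ldha had 801, 769 and 854 CPM under DSS, against 1203, 1736 and 1049.9 CPM under water. Every DSS library lay below every water library of its genotype, and the averaged Ldha difference was -0.76 ± 0.14 (SE, edgeR adjusted p = 0.00205). Pgk1 stood at 203, 150.1 and 161 CPM in DKO mice on DSS, against 264, 219 and 219.9 CPM in DKO mice on water. In LAO1KO colon Pgk1 had 199.7, 139.8 and 238 CPM under DSS, against 379.9, 239.7 and 264 CPM under water. In WT colon Pgk1 had 198, 203 and 202 CPM under DSS, against 296, 502 and 278 CPM under water. Pgk1 was likewise lower without overlap in all 3 genotypes, and its averaged difference was -0.63 ± 0.13 (SE, edgeR adjusted p = 0.00512).

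Pgam1 and Pkm moved less. Pgam1 stood at 107, 99.3 and 96.5 CPM in DKO mice on DSS, against 127, 118 and 106 CPM in DKO mice on water. In LAO1KO colon Pgam1 had 105, 79.0 and 118 CPM under DSS, against 147, 112 and 110.3 CPM under water. In WT colon Pgam1 had 107, 105 and 91.2 CPM under DSS, against 161, 285 and 142 CPM under water. The DSS and water values were apart in WT and overlapped in DKO and LAO1KO, and the averaged Pgam1 difference was -0.49 ± 0.12 (SE, edgeR adjusted p = 0.0131). Pkm stood at 514, 441 and 459 CPM in DKO mice on DSS, against 600.1, 617 and 527 CPM in DKO mice on water. In LAO1KO colon Pkm had 508, 440.1 and 521 CPM under DSS, against 762, 609 and 639 CPM under water. In WT colon Pkm had 576, 569 and 616 CPM under DSS, against 719, 1009 and 561 CPM under water. Pkm was lower without overlap in DKO and LAO1KO, while in WT the water library C lay below every DSS library. The averaged Pkm difference was -0.38 ± 0.10 (SE, edgeR adjusted p = 0.0186). Gapdh, the dehydrogenase that opens this phase, spanned 560 to 1379 CPM and gave -0.01 ± 0.13 (SE). Eno1, the widespread enolase, gave -0.29 ± 0.13 (SE, edgeR adjusted p = 0.134). Eno2, the enolase of neurons, was 9.93, 13.6 and 23.7 CPM at its lowest, median and highest under DSS and 5.53, 9.50 and 16.8 CPM under water, with 0.58 ± 0.20 (SE, edgeR adjusted p = 0.0598). Gapdh, Ldha, Pgk1, Pgam1, Eno1, Aldoa and Tpi1 have near-identical pseudogenes in the mouse genome, and how shared reads were counted is not given in the sources used here, so their levels are uncertain to that extent.

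**Figure D2:**
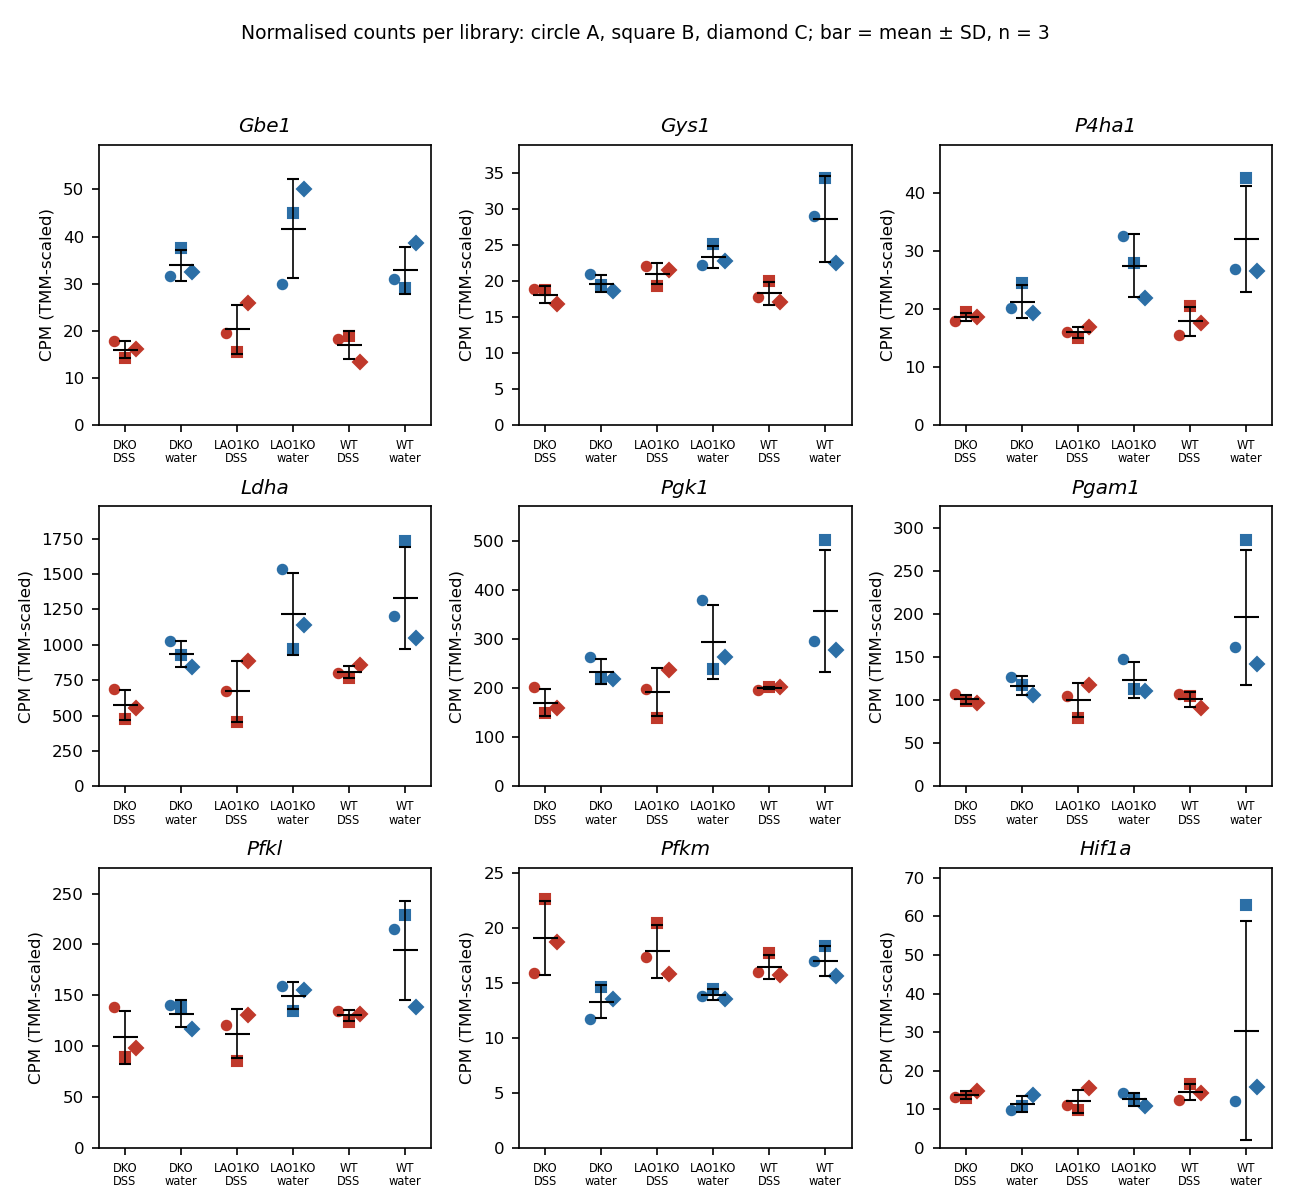
CPM in each library for 9 of the 34 genes, with the replicate letter given by the marker and bars for the mean ± SD of 3 libraries. DSS groups are red and stand left of the water group of the same genotype in blue; Gbe1, Ldha and Pgk1 are lower in every DSS library of each genotype, and WT water B lies far above its group for Hif1a at 63.0 CPM.

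The regulators of glycolytic flux were not called. Pdk1, a kinase that inhibits pyruvate dehydrogenase, gave -0.21 ± 0.09 (SE, edgeR adjusted p = 0.133). Pfkfb3 makes the fructose 2,6-bisphosphate that activates phosphofructokinase. Pfkfb3 stood at 6.36, 4.90 and 7.57 CPM in DKO mice on DSS, against 3.60, 4.89 and 4.34 CPM in DKO mice on water. In LAO1KO colon Pfkfb3 had 22.9, 7.71 and 22.8 CPM under DSS, against 4.77, 11.5 and 3.68 CPM under water. In WT colon Pfkfb3 had 3.49, 6.49 and 6.05 CPM under DSS, against 4.79, 6.63 and 9.90 CPM under water. LAO1KO DSS A and C stood far above every other library, and the averaged Pfkfb3 difference was 0.52 ± 0.25 (SE, edgeR adjusted p = 0.166). Markers of fat cells stood highest in the same libraries: the summed level of 8 adipocyte genes was 1793, 154 and 1453 CPM in LAO1KO DSS libraries A, B and C, against 512, 802 and 42.8 CPM in LAO1KO water libraries, and it spanned 39.8 to 590 CPM in the DKO and WT groups. The adipocyte list was not called in the averaged DSS comparison for any of its 8 genes, and its part in the Pfkfb3 values was not tested. In bulk tissue a change in the number of cells of a type and a change in RNA per cell cannot be told apart.

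The lowest estimate of all 34 genes was in glycogen synthesis. Gbe1 (chromosome 16, bases 70313949 to 70569720, GRCm38.p6), which makes the branches of glycogen, fell in the averaged comparison, and so did Gys1, the glycogen synthase of tissues other than liver. Gbe1 stood at 17.8, 14.2 and 16.1 CPM in DKO mice on DSS, against 31.5, 37.5 and 32.5 CPM in DKO mice on water. In LAO1KO colon Gbe1 had 19.5, 15.5 and 25.8 CPM under DSS, against 29.8, 45.1 and 50.1 CPM under water. In WT colon Gbe1 had 18.3, 18.8 and 13.5 CPM under DSS, against 31.0, 29.1 and 38.5 CPM under water. The 9 DSS libraries spanned 13.5 to 25.8 CPM and the 9 water libraries 29.1 to 50.1 CPM, so that the treatments did not overlap across the whole series. The averaged Gbe1 difference was -1.03 ± 0.12 (SE, edgeR adjusted p = 1.29e-04). By genotype it was -1.08 ± 0.20 in DKO, -1.04 ± 0.20 in LAO1KO and -0.96 ± 0.20 in WT (SE).

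Gys1 stood at 18.9, 18.7 and 16.7 CPM in DKO mice on DSS, against 20.9, 19.4 and 18.5 CPM in DKO mice on water. In LAO1KO colon Gys1 had 22.1, 19.3 and 21.5 CPM under DSS, against 22.3, 25.1 and 22.7 CPM under water. In WT colon Gys1 had 17.7, 20.0 and 17.0 CPM under DSS, against 29.0, 34.3 and 22.5 CPM under water. Gys1 was lower without overlap in LAO1KO and WT, the DKO libraries overlapped, and the averaged Gys1 difference was -0.31 ± 0.08 (SE, edgeR adjusted p = 0.0161). Ppp1r3c, a subunit that brings protein phosphatase 1 to glycogen and so activates the synthase, spanned 2.80 to 12.2 CPM, both within the WT DSS group, and gave -0.18 ± 0.20 (SE, edgeR adjusted p = 0.582).

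Of the genes for HIF-1 alpha and its hydroxylases, 1 of 3 passed the test. It was Egln1, the main oxygen sensor that hydroxylates HIF-1 alpha, which fell. Egln1 stood at 56.2, 61.8 and 56.2 CPM in DKO mice on DSS, against 64.9, 67.5 and 64.3 CPM in DKO mice on water. In LAO1KO colon Egln1 had 67.5, 50.9 and 71.1 CPM under DSS, against 84.0, 73.1 and 66.0 CPM under water. In WT colon Egln1 had 61.5, 58.4 and 67.9 CPM under DSS, against 68.0, 86.1 and 72.8 CPM under water. Egln1 was lower without overlap in DKO and WT, and its averaged difference was -0.23 ± 0.08 (SE, edgeR adjusted p = 0.0491). That call rested on 12 of the 18 libraries, since leaving out any 1 of DKO DSS A, DKO DSS C, all 3 DKO water libraries, LAO1KO DSS A, LAO1KO DSS B, LAO1KO water B, WT DSS A, WT DSS B, WT water B or WT water C ended it, with differences of -0.19 to -0.25 in those fits. Egln3, a hydroxylase gene that HIF-1 itself is known to induce, spanned 16.1 to 39.6 CPM and gave -0.16 ± 0.20 (SE, edgeR adjusted p = 0.622).

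Hif1a stood at 13.2, 12.9 and 14.8 CPM in DKO mice on DSS, against 9.80, 10.7 and 13.8 CPM in DKO mice on water. In LAO1KO colon Hif1a had 11.1, 9.76 and 15.4 CPM under DSS, against 14.3, 12.6 and 10.8 CPM under water. In WT colon Hif1a had 12.5, 16.6 and 14.2 CPM under DSS, against 12.2, 63.0 and 15.7 CPM under water. Hif1a therefore lay between 9.76 and 16.6 CPM in 17 libraries, and WT water B stood apart from all of them at 63.0 CPM. The averaged Hif1a difference was -0.29 ± 0.25 (SE, edgeR adjusted p = 0.451), and it was 0.08 without WT water B.

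Of the 8 other hypoxia-inducible genes 1, P4ha1, passed the test. P4ha1 (chromosome 10, bases 59323197 to 59373304) encodes the catalytic subunit of collagen prolyl 4-hydroxylase. P4ha1 stood at 17.9, 19.4 and 18.5 CPM in DKO mice on DSS, against 20.1, 24.5 and 19.2 CPM in DKO mice on water. In LAO1KO colon P4ha1 had 16.1, 15.0 and 16.8 CPM under DSS, against 32.6, 28.0 and 21.9 CPM under water. In WT colon P4ha1 had 15.5, 20.5 and 17.6 CPM under DSS, against 27.0, 42.6 and 26.6 CPM under water. P4ha1 was lower without overlap in LAO1KO and WT and overlapped in DKO, and its averaged difference was -0.61 ± 0.11 (SE, edgeR adjusted p = 0.00165). The angiogenic factor Vegfa gave -0.21 ± 0.12 (SE, edgeR adjusted p = 0.24), and the vasodilator peptide gene Adm, at 1.06 to 5.64 CPM, gave -0.62 ± 0.24 (SE, edgeR adjusted p = 0.0866). Bnip3, which directs the removal of mitochondria, had an estimate of 0.33 ± 0.16 (SE, edgeR adjusted p = 0.16). Car9, a cell-surface carbonic anhydrase, gave 0.06 ± 0.08, the nuclear ankyrin repeat gene Ankrd37 gave 0.14 ± 0.19, the stress-responsive Ndrg1 gave -0.10 ± 0.12 and Ddit4, an inhibitor of mTORC1, gave 0.03 ± 0.11 (SE). The 8 genes had a median of -0.04.

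The promoters of the 4 genes with the smallest adjusted p are printed because HIF-1 is known to bind the core letters ACGTG or GCGTG of the hypoxia response element, and these genes differ in how many such matches they hold. Each window runs from 250 bases before to 50 bases after a RefSeq transcript start in GRCm38.p6, on the plus strand, 5′ to 3′. Capitals mark every match of ACGTG or GCGTG on either strand, so that a match on the minus strand reads CACGT or CACGC. The promoter set holds 2 starts for Ldha, and the annotated gene begins upstream of both windows, at base 46842274, where no window was searched. The windows are at chr16:70313699-70313998 (Gbe1), chr10:59323046-59323345 (P4ha1), chr7:46845554-46845853 and chr7:46846832-46847131 (Ldha) and chrX:106186850-106187149 (Pgk1).
Gbe1: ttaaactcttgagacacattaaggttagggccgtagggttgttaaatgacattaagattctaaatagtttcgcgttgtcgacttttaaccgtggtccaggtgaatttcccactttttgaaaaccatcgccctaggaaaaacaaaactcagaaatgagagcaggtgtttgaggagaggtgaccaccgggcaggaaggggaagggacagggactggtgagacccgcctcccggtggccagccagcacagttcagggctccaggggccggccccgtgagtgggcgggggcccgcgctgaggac
P4ha1: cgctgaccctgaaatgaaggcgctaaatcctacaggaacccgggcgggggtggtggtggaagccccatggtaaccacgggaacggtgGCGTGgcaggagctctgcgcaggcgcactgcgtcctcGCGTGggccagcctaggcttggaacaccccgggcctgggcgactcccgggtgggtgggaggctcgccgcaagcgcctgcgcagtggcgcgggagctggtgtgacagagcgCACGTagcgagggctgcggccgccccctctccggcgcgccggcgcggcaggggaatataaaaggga
Ldha, first start: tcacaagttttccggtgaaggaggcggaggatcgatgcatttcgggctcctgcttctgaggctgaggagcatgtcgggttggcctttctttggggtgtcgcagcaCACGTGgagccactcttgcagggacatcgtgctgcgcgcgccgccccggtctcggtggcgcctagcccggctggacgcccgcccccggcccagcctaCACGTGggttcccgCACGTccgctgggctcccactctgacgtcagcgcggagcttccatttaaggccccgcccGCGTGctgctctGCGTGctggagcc
Ldha, second start: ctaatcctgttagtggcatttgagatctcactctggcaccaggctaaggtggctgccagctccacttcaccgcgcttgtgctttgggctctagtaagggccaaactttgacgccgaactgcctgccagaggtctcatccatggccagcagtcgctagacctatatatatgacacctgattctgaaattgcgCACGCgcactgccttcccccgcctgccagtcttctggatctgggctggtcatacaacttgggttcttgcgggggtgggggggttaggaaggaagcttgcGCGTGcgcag
Pgk1: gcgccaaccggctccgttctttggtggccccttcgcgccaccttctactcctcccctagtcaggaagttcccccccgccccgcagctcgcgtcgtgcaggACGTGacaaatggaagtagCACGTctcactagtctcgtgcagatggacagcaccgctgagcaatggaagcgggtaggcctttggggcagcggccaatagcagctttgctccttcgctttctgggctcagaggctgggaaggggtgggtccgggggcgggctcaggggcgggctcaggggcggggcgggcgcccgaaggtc

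The Gbe1 window held 0 matches, the P4ha1 window 3, the Ldha windows 7 and 2, and the Pgk1 window 2. In the first Ldha window, CACGTG reads as a match on both strands, and CACGTG is also the E-box bound by clock and MYC family factors. Promoters of 33 of the 34 genes were matched in the RefSeq table, with 47 windows, and Ndrg1 was not matched. ACGTG was found on either strand in 26 of the 47 windows, against 19.6% of all 32851 promoter windows. By gene it was found in 23 of 33, against 21.8% of all 27025 genes with promoters. GCGTG was found in 25 of 47 windows, against 32.4% of all windows, and in 20 of 33 genes, against 35.2% of all genes with promoters. CACGTG, which contains ACGTG on both strands, was found in 6 of 47 windows, against 7.15% of all. The D-box letters TTATGTAA and TTACGTAA and the palindrome of the glucocorticoid receptor were found in 0 of the 47 windows, against 0.938%, 0.119% and 0.00913% of all windows. These are matches of letters within 300 bases, and neither a match nor its lack shows whether a factor is bound.

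Within WT, DSS lowered 7 of the 34 genes and raised 0, and 27 did not pass. Among all tested genes 12.9% were called in WT, 6.29% higher and 6.59% lower. DESeq2 called 10 of the 34 and limma voom with library weights 9, against 18.4% and 18.3% of all genes. The 7 were Hk1, Hk2, Pgk1, Pgam1, Gys1, Gbe1 and P4ha1. Hk2, the inducible hexokinase, had the lowest estimate at -1.20 ± 0.35 (SE, edgeR adjusted p = 0.0346). Hk2 stood at 80.3, 50.5 and 48.0 CPM in DKO mice on DSS, against 75.9, 65.2 and 51.0 CPM in DKO mice on water. In LAO1KO colon Hk2 had 57.2, 43.9 and 58.1 CPM under DSS, against 78.4, 64.4 and 69.7 CPM under water. In WT colon Hk2 had 60.3, 67.4 and 30.7 CPM under DSS, against 92.8, 200.4 and 71.8 CPM under water. Every DSS library was lower in LAO1KO and WT, with WT DSS C lowest at 30.7 CPM and WT water B highest at 200.4 CPM. Hk1 stood at 115, 76.8 and 81.2 CPM in DKO mice on DSS, against 92.0, 100.4 and 113 CPM in DKO mice on water. In LAO1KO colon Hk1 had 97.0, 78.0 and 92.5 CPM under DSS, against 111, 87.8 and 84.5 CPM under water. In WT colon Hk1 had 81.6, 90.8 and 72.9 CPM under DSS, against 145, 231 and 98.8 CPM under water. Hk1, the widespread hexokinase, was lower without overlap in WT, with -0.95 ± 0.23 (SE, edgeR adjusted p = 0.015), and overlapped in both knockouts.

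The other WT differences were -0.95 ± 0.21 (SE, edgeR adjusted p = 0.00935) for Pgam1, -0.96 ± 0.20 (SE, edgeR adjusted p = 0.00837) for Gbe1, -0.84 ± 0.18 (SE, edgeR adjusted p = 0.00871) for P4ha1, -0.84 ± 0.23 (SE, edgeR adjusted p = 0.0262) for Pgk1 and -0.64 ± 0.14 (SE, edgeR adjusted p = 0.0083) for Gys1. WT water B weighed on most of them. Without that library only Gys1 and Gbe1 were called, at -0.49 and -1.04, while Hk1 was at -0.58, Hk2 at -0.64, Pgk1 at -0.52, Pgam1 at -0.58 and P4ha1 at -0.58. Without WT DSS C, the library with a mitochondrial share of 44.9%, the called genes were Pgam1, Gys1, Gbe1 and P4ha1. Without WT DSS A, Hk2 and Pgk1 were no longer called, and without WT water C the count was 12. The mitochondrial share separated the WT groups as these genes did. With those transcripts left out of the counts, 9 of the 34 were called in WT, the 7 with Ldha and Pfkl. With the WT groups fitted alone, Gbe1 and P4ha1 were called. The share of all genes called in each of these fits is not given here, so the counts describe the members only. Over the 18 fits without 1 library, Gbe1 passed in 18, Gys1 in 18, P4ha1 and Pgam1 in 17 and 17, Hk1 in 16, and Hk2 and Pgk1 in 15 and 15.

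In LAO1KO 1 of the 34 genes was called, and in DKO 0 were called, against 0.196% of all tested genes in LAO1KO and 0.0159% in DKO. The 1 gene was Gbe1, at -1.04 ± 0.20 (SE, edgeR adjusted p = 0.0446) in LAO1KO, and in DKO it gave -1.08 ± 0.20 (SE, edgeR adjusted p = 0.0777). The LAO1KO call held in 8 of 18 fits without 1 library, and ended without DKO DSS A or C, any DKO water library, LAO1KO DSS A or B, LAO1KO water B or C, or WT water A, with differences of -0.89 to -1.05. At an unadjusted p under 0.05, 3 of the 34 passed in DKO, against 9.59% of all genes, and 9 passed in LAO1KO, against 15.6%. DESeq2 called 2 members in DKO and 4 in LAO1KO, against 0.923% and 3.58% of all genes, and limma voom with library weights called 3 and 14, against 2.35% and 26.7%. Counted without a model, 7 members in DKO, 8 in LAO1KO and 12 in WT had every DSS library below every water library, against 10.4%, 10.1% and 15.8% of all tested genes. Every DSS library was above every water library for 4 members in DKO, 4 in LAO1KO and 2 in WT, against 8.39%, 9.3% and 18% of all tested genes. Gbe1, Ldha and Pgk1 were below in all 3 genotypes, as were 1.91% of all tested genes.

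**Figure D3:**
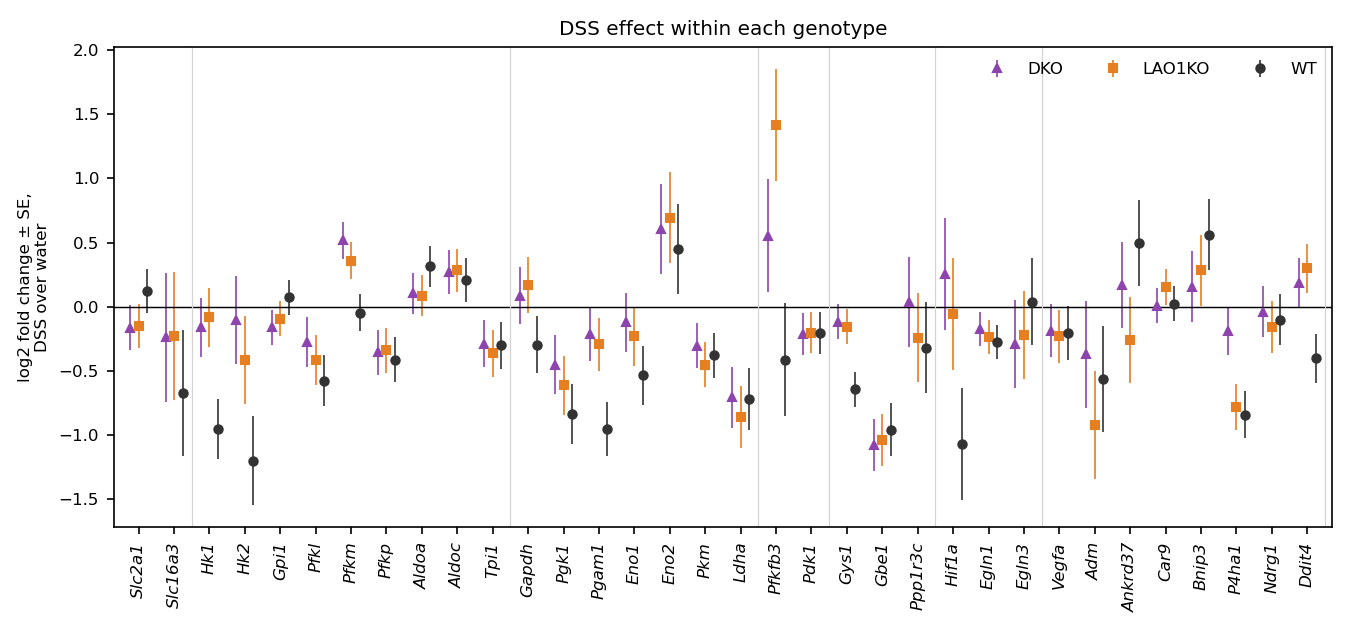
Log2 fold change of DSS over water within DKO, LAO1KO and WT for the 34 genes in the order of their roles, with bars of 1 SE from edgeR. Gbe1 lies near -1 in all 3 genotypes, whereas Hk2 and Hif1a have their lowest estimates in WT, at -1.20 and -1.07, and stand at -0.64 and 0.04 there without WT water B.

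The dependence of the DSS response on genotype was tested as an interaction, and 0 of the 34 genes were called for DKO and 0 for LAO1KO against WT, where 0.0584% and 0% of all genes were. At an unadjusted p under 0.05, 8 passed for DKO and 5 for LAO1KO, against 15.4% and 15.9% of all genes. DESeq2 called 0 in both, against 2.61% and 2.34%, and limma voom with library weights called 0 for DKO and 5 for LAO1KO, against 1.14% and 12.5%. The interaction of Gys1, which encodes the synthase, was 0.53 ± 0.19 (SE, edgeR adjusted p = 0.216) for DKO and 0.49 ± 0.19 (SE, edgeR adjusted p = 0.238) for LAO1KO, both shared with the same WT libraries. For Pfkm it was 0.56 ± 0.20 (SE, edgeR adjusted p = 0.21) in DKO, and for Pfkfb3 1.83 ± 0.62 (SE, edgeR adjusted p = 0.186) in LAO1KO. Without WT water B, 2 genes passed the unadjusted test in each interaction, and the share of all genes in that fit is not given here.

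None of the 34 genes was called by edgeR between the genotypes as labelled. For DKO against WT the count was 0 under water, 0 under DSS and 0 averaged, against 0.621%, 0.255% and 0.562% of all tested genes. For LAO1KO against WT it was likewise 0 in each, against 0.0531%, 0.0849% and 0.133%, and for DKO against LAO1KO, averaged over treatments, it was 0 against 0.239%. At an unadjusted p under 0.05, 16 members passed for DKO against WT under water, against 17.3% of all genes, 2 under DSS, against 9.69%, and 15 averaged, against 10.8%. For LAO1KO against WT, 9 passed under water, against 14.3%, 2 under DSS, against 6.02%, and 9 averaged, against 4.8%, and 5 passed for DKO against LAO1KO, against 7.21%. DESeq2 called 4 members for DKO against WT under water, where it called 4.15% of all genes, 1 under DSS, against 0.791%, and 1 averaged, against 1.19%. For LAO1KO against WT it called 0 under water, 1 under DSS and 0 averaged, against 1.58%, 0.292% and 0.271%, and for DKO against LAO1KO 0, against 0.557%. limma voom with library weights called 0 for DKO against WT under water, 2 under DSS and 2 averaged, against 1.06%, 2.37% and 1.29% of all genes. It called 6 for LAO1KO against WT under water, where it called 4.96% of all genes, 1 under DSS, against 5.24%, 0 averaged, against 0.546%, and 3 for DKO against LAO1KO, against 1.88%. The members' median was -0.40 for DKO against WT under water, against 0.01 for all tested genes, and it was -0.27 without WT water B.

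Gys1 came nearest to the threshold between genotypes. Under water it was 20.9, 19.4 and 18.5 CPM in DKO and 22.3, 25.1 and 22.7 CPM in LAO1KO, against 29.0, 34.3 and 22.5 CPM in WT, so that the DKO values lay below all WT values. The difference of DKO from WT was -0.54 ± 0.14 (SE, edgeR adjusted p = 0.0809). Gys1 lies on chromosome 7 at bases 45434839 to 45456617, 0.594 Mb from Il4i1, and Ldha lies 2.0 Mb from it, so DNA linked to the Il4i1 mutation and the loss of Il4i1 cannot be told apart there. Slc2a1 lies 0.140 Mb from Lao1 on chromosome 4, and the same holds for it and Lao1. Under water Slc2a1 had 151, 168 and 154 CPM in DKO and 176, 152 and 164 CPM in LAO1KO, against 115, 172 and 87.5 CPM in WT, with overlap through WT water B. Its difference from WT was 0.34 ± 0.17 (SE, edgeR adjusted p = 0.321) for DKO and 0.39 ± 0.17 (SE, edgeR adjusted p = 0.309) for LAO1KO. For DKO it was 0.62 and called without WT water B and LAO1KO water A. Without a model, 8 members (Gys1, Pgam1, P4ha1, Pgk1, Ldha, Gpi1, Egln1 and Pfkm) were lower in every DKO water library than in every WT water library, against 9.86% of all tested genes, and 0 were higher in every one, against 11.6%. Among them Pgam1, P4ha1 and Pgk1 had differences of -0.74 ± 0.21 (SE, edgeR adjusted p = 0.107), -0.59 ± 0.18 (SE, edgeR adjusted p = 0.131) and -0.62 ± 0.23 (SE, edgeR adjusted p = 0.188). Averaged over treatments, Gpi1 gave -0.40 ± 0.10 (SE, edgeR adjusted p = 0.0867) for DKO against WT. Gpi1 also lies on chromosome 7, 10.6 Mb from Il4i1, so linked DNA and the loss of Il4i1 cannot be told apart for it either.

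**Figure D4:**
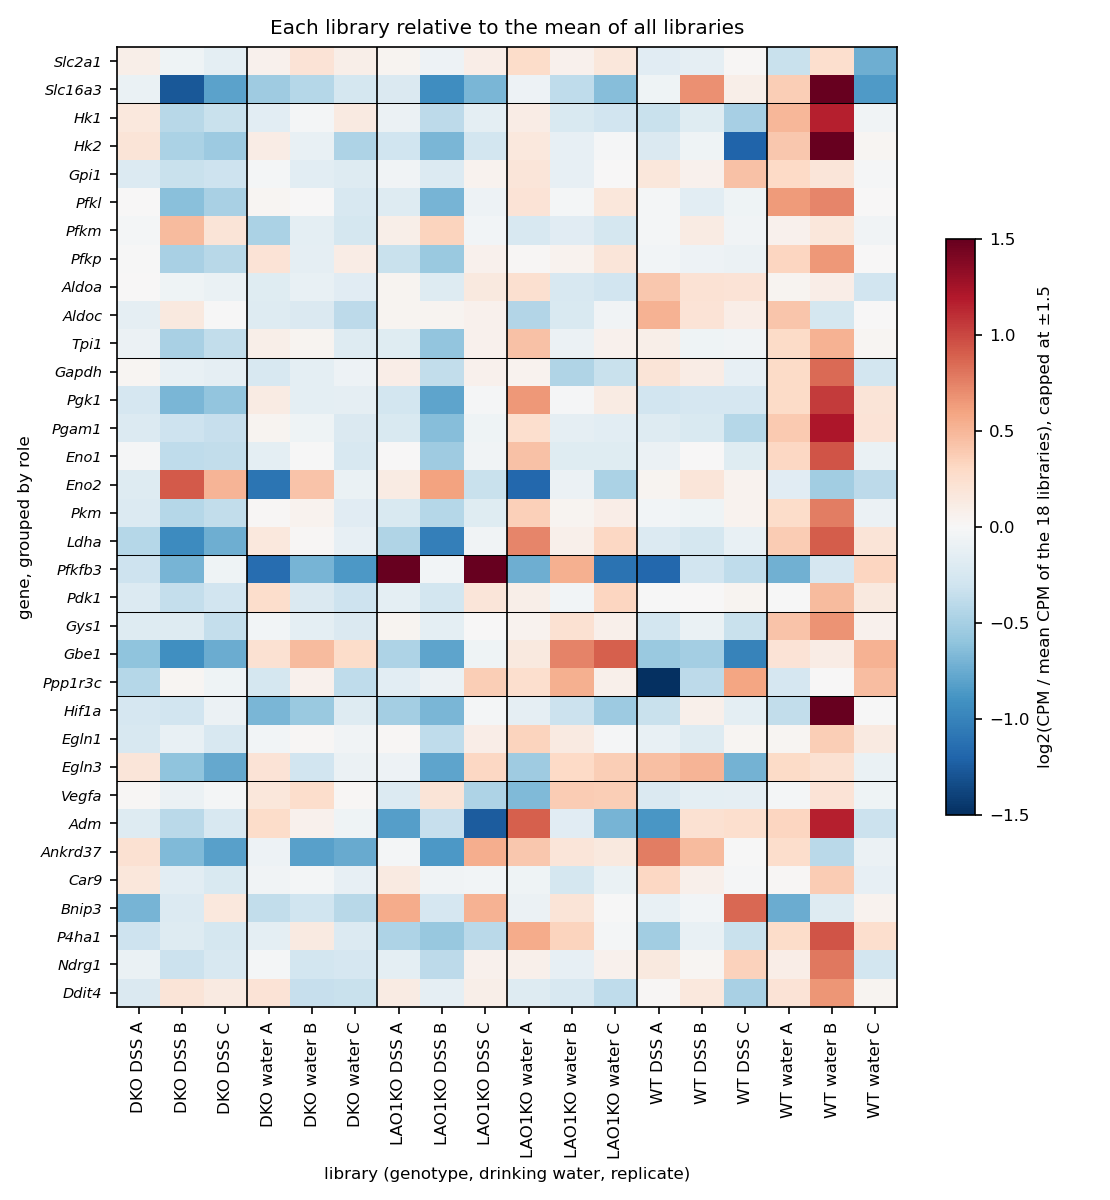
Log2 ratio of each library's CPM to the mean of the 18 libraries, for the 34 genes by role (rows) and the libraries by genotype, drinking water and replicate (columns), capped at ±1.5. WT water B is the darkest red column, highest of all libraries for 21 genes, and LAO1KO DSS B holds the lowest value for 14.

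Much of the spread among the 34 genes ran by library. WT water B held the highest of the 18 values for 21 genes, with a median of 0.58 log2 above the mean of the 18 libraries. LAO1KO DSS B held the lowest value for 14 genes, with a median of -0.39, and DKO DSS B had a median of -0.33. LAO1KO water A, the other library at the high end of the first principal component, had a median of 0.13. With WT water B and LAO1KO water A left out, a choice made after seeing the data, 12 members were called in the averaged comparison, and with LAO1KO DSS B and DKO DSS B also left out 7 were called. Those 7 were Pgk1, Pgam1, Ldha, Gbe1, P4ha1 and Vegfa, which were lower, and Aldoa, which was higher. Gbe1 was -1.04, Ldha -0.50, Pgk1 -0.36 and P4ha1 -0.47 in that fit. Calls over all genes also change between fits, so these counts do not show whether the members changed apart from the whole table.

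Markers of other cell types were set beside these values. Markers of the labelled tissue were abundant: the 10 absorptive colonocyte genes summed to 11169 to 21228 CPM and the 8 epithelial genes to 10248 to 24519 CPM, with no gene of either list at 0 in a group. In the averaged DSS comparison 4 of 10 absorptive colonocyte genes and 1 of 8 general epithelial genes fell, Cdh1 at -0.30 ± 0.09 (SE, edgeR adjusted p = 0.0404), while 0 of 8 smooth muscle genes were called. Of all tested genes 15.9% were called in that comparison and 12.9% in WT. Among 8 fibroblast genes 1 fell in the averaged comparison and 3 in WT, where the list summed to 368, 829.6 and 547 CPM under DSS, against 966, 1254 and 759 CPM under water. In adipocyte, B cell, endothelial, macrophage and neutrophil, and red cell lists 0 genes were called, and the neutrophil gene S100a9 was at 0 in every group. Their part in the lower glycolytic, Gbe1 and P4ha1 values was not tested.

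Enteric neuron and glia markers were set beside Eno2 and Aldoc, genes known from nerve tissue. Of 10 such markers 8 rose and 0 fell in the averaged comparison, with 0.89 ± 0.18 (SE, edgeR adjusted p = 0.00532) for neuronal tubulin Tubb3 and 0.78 ± 0.21 (SE, edgeR adjusted p = 0.0194) for the synaptic Snap25. Their summed level was 179.5, 350.3 and 286 CPM in DKO under DSS, against 97.5, 221 and 208 CPM under water. In LAO1KO it was 210.5, 288 and 162 CPM under DSS, against 109, 170.2 and 149 CPM under water, and in WT 194, 219 and 266 CPM, against 122, 104 and 144 CPM. The treatments were apart in WT and overlapped in DKO and LAO1KO. Eno2 had its highest value, 23.7 CPM, in DKO DSS B, the library with the highest marker sum, and Pfkm was also highest there at 22.6 CPM. The part of these markers in the Eno2 and Aldoc values was not tested.

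Pfkm, the muscle-type gene, was set beside 10 skeletal muscle markers, of which 4 passed the filter on low counts and 0 were called in the averaged comparison. Their summed level was 63.1, 57.2 and 50.3 CPM in DKO under DSS, against 26.1, 43.9 and 41.6 CPM under water. In LAO1KO it was 68.9, 48.0 and 55.7 CPM under DSS, against 59.8, 31.4 and 28.0 CPM under water, and in WT 29.9, 47.5 and 39.5 CPM, against 41.4, 55.5 and 44.6 CPM. Like Pfkm, the sum was higher under DSS without overlap in DKO and overlapped in WT, and unlike Pfkm it overlapped in LAO1KO through LAO1KO water A. Most of the sum came from Ckm, Acta1 and Pygm, with means of 26.4, 14.2 and 9.30 CPM under DSS and 25.1, 7.59 and 7.02 CPM under water. Myh4 was at 0 in every library, and Myh1, Myh2, Mb, Tnnt3 and Pvalb had means of at most 0.145 CPM in either treatment. The sum therefore does not show that skeletal muscle was present, and the part of these markers in the Pfkm values was not tested.

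**Figure D5:**
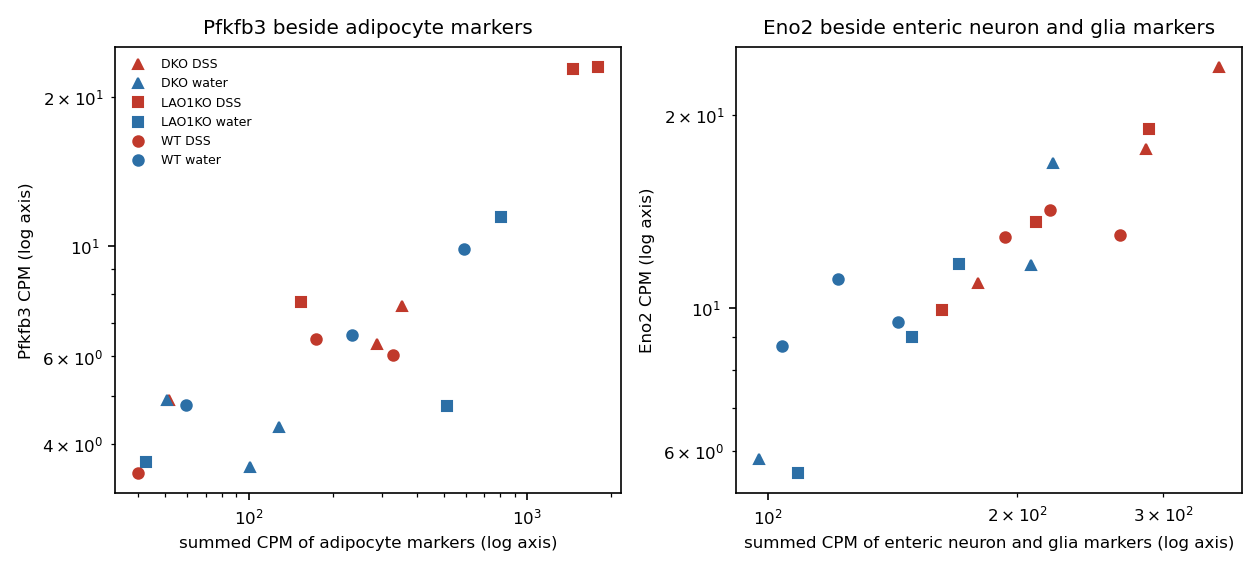
Left, Pfkfb3 CPM against the summed CPM of 8 adipocyte markers, and right, Eno2 CPM against the summed CPM of 10 enteric neuron and glia markers, each point 1 of the 18 libraries, all axes on a log scale. LAO1KO DSS A and C hold the highest values of both measures on the left, and DKO DSS B on the right.

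Other genes of these pathways were read from lists that do not contain the 34. Among 30 tested genes of glycolysis and pyruvate use, 16.7% were called under DSS in the averaged comparison, near the 15.9% of all tested genes. Of these 30 genes, 5 fell and 0 rose, with a median of -0.04. They were Minpp1, a phosphatase, at -0.46 ± 0.08 (SE, edgeR adjusted p = 0.00176), the pyruvate dehydrogenase kinase Pdk4 at -0.94 ± 0.19 (SE, edgeR adjusted p = 0.00512), Bpgm at -0.28 ± 0.08 (SE, edgeR adjusted p = 0.0277), the lactate and butyrate carrier Slc16a1 at -0.55 ± 0.18 (SE, edgeR adjusted p = 0.0431), and the pyruvate dehydrogenase subunit Pdha1 at -0.21 ± 0.07 (SE), with an edgeR adjusted p just under the threshold. Of 8 gluconeogenesis genes, 1 rose, or 12.5%, Pck2 at 0.34 ± 0.09 (SE, edgeR adjusted p = 0.0148). In WT the fructose carrier Slc2a5 alone of the 30 was called, at 1.59 ± 0.41 (SE, edgeR adjusted p = 0.0202). That was 3.33% of the list, against 12.9% of all tested genes.

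In the wider glycogen list of 22 tested genes, 13.6% were called in the averaged comparison, near the 15.9% of all tested genes. On that list 1 fell and 2 rose, with a median of 0.02. Ppp1r3b, another glycogen-targeting phosphatase subunit, fell by 0.45 ± 0.11 (SE, edgeR adjusted p = 0.0105), while the phosphorylase kinase subunits Phka2 and Phkg2 rose, at 0.35 ± 0.10 (SE, edgeR adjusted p = 0.0245) and 0.26 ± 0.08 (SE, edgeR adjusted p = 0.0489). In WT 3 of the 22 were called, 1 higher and 2 lower, or 13.6% against 12.9% of all tested genes. Glycogen phosphorylase is the enzyme that breaks glycogen down. Its brain form Pygb fell in WT and had the smallest adjusted p of this list there. Pygb stood at 75.5, 101 and 80.9 CPM in WT under DSS, against 148, 178 and 128 CPM in WT under water, with -0.82 ± 0.14 (SE, edgeR adjusted p = 0.00259). In DKO it had 103, 116 and 96.6 CPM under DSS, against 89.1, 96.8 and 97.1 CPM under water, and in LAO1KO 115, 111 and 113 CPM, against 114, 98.5 and 90.5 CPM. Under water Pygb was lower in DKO than in WT, at -0.68 ± 0.14 (SE, edgeR adjusted p = 0.0323), and its interaction was 0.98 ± 0.19 (SE, edgeR adjusted p = 0.0713) for DKO and 0.99 ± 0.19 (SE, edgeR adjusted p = 0.126) for LAO1KO, neither past the threshold.

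Of 34 tested genes on the wider hypoxia list, 17.6% were called in the averaged comparison, near the 15.9% of all tested genes. On that list 6 genes fell and 0 rose, with a median of -0.07. They included further parts of the oxygen-sensing machinery: Hif1an, the asparaginyl hydroxylase that silences HIF-1 alpha, at -0.36 ± 0.06 (SE, edgeR adjusted p = 0.00159), the hydroxylase gene Egln2 at -0.33 ± 0.09 (SE, edgeR adjusted p = 0.0224), the ubiquitin ligase gene Vhl at -0.23 ± 0.07 (SE, edgeR adjusted p = 0.0409), and Epas1, which encodes HIF-2 alpha, at -0.31 ± 0.10 (SE, edgeR adjusted p = 0.042). The collagen-modifying genes Loxl2 and P4ha2 gave -0.56 ± 0.18 (SE, edgeR adjusted p = 0.0461) and -0.40 ± 0.13 (SE, edgeR adjusted p = 0.0497). Egln1, Egln2, Vhl and Hif1an limit HIF, whereas Epas1 is a HIF subunit, so the called genes act in both directions on the pathway. In WT 3 of the 34 fell, Hif1an, Loxl2 and P4ha2, and 1 rose, Fam162a, at 0.62 ± 0.20 (SE, edgeR adjusted p = 0.0468). That was 11.8% of the list, against 12.9% of all tested genes.

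Genes that respond to time of day and to glucocorticoids moved with the treatment as well. Of 16 clock genes 8 rose and 4 fell in the averaged comparison, with 2.04 ± 0.21 (SE, edgeR adjusted p = 1.29e-04) for Dbp and -1.28 ± 0.10 (SE, edgeR adjusted p = 5.19e-06) for Arntl, which encodes BMAL1. Dbp stood at 107, 113 and 131 CPM in WT under DSS, against 9.86, 6.02 and 13.6 CPM in WT under water. Of 12 glucocorticoid-responsive genes, which share Per1 with the clock list and Pdk4 with the pyruvate list, 1 rose and 6 fell, among them Sgk1 at -1.37 ± 0.14 (SE, edgeR adjusted p = 6.29e-05). The labels give no hour of collection, and the part of collection time or stress in the values of the 34 genes was not tested.

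Levels between isoforms can be compared only per length, here as mean CPM per kilobase of the union of annotated exons over the 18 libraries, a measure that understates genes with long exons that are not used. Among hexokinases Hkdc1 had 22.3, Hk1 12.0, Hk2 11.8 and Hk3 0.183 CPM per kilobase. Aldoa had 354 and Aldoc 3.73, while Ldha had 279 and Ldhb 16.2. Eno1 had 69.9 and Eno2 2.65. For lactate transport Slc16a1 had 39.6 and Slc16a3 0.632, and for glucose entry Slc2a1 had 41.4 and Slc2a3 1.04. The oxygen sensors Egln2, Egln1 and Egln3 had 19.6, 18.5 and 10.4. By this measure Pfkl and Ldha, which fell under DSS, were the most abundant forms of their step, and Pfkm, which rose, was the scarcest phosphofructokinase. The order of Pfkl and Pfkp rests on their annotated exon lengths, 6.675 and 13.4 kilobases. Before division by length Pfkp was higher, with means of 171 CPM under DSS and 221 under water, against 117 and 158 for Pfkl.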

How the data were processed

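Whole-gene read counts of 18 mouse colon libraries were used as deposited, in the authors' matrix of unnormalized counts for 45777 genes. Per the submitters' processing notes, FastQC 0.11.7, Trimmomatic 0.38, HISAT2 2.1.0, StringTie 2.1.3b, R 4.3.2 and DESeq2 1.42.1 were used with the builds GRCm38 and mm10. The handling of strand, overlapping genes and reads that match several places is not given in the sources used here.

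Groups followed the labels, and nothing in them names a batch. Low genes were removed with filterByExpr at its default, which kept 18848 genes. After TMM scaling, edgeR 4.0.16 (R 4.3.3) fitted 1 mean per group to all 18 libraries (glmQLFit with robust estimation, glmQLFTest). The p-values were adjusted by Benjamini-Hochberg over all tested genes, a call was an adjusted p under 0.05, and SEs were obtained by dividing the size of each log2 fold change by the root of its F statistic. The steps were tested on simulated data with 50 planted genes per fold change. In the averaged comparison 14% of 1.25-fold, 44% of 1.5-fold and 84% of 2-fold changes were recovered. In WT it was 0%, 10% and 48%. False calls made up 4.76% and 6.1% of calls. The simulation changed only the planted genes and drew each library independently. In the data 15.9% of genes were called in the averaged comparison, and libraries such as WT water B stood apart over many genes. Neither rate need therefore carry over to these data. Small changes were often missed in the simulation and may be missed here. The p-values measure the spread between libraries, 3 per group. Alternatives were DESeq2 1.42.0, limma voom 3.58.1 with library weights, RLE factors, no filter, mitochondrial mRNAs left out, the replicate letter as a block, a block within WT alone (same-letter WT libraries deviated together, with correlations of 0.17 to 0.22, against -0.15 to -0.05 for different letters), the compared groups alone and leaving out libraries.

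The members, the related lists and the marker lists were chosen with earlier results of these data known. Members called in any comparison are given in every library, other members by range or estimate, and of each related list up to 6 called genes with the smallest adjusted p. Promoters, positions and motif shares are from RefSeq GRCm38.p6, and exon lengths are from GENCODE M21.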

Additional observations from a re-analysis of the deposited data

How the results depend on the processing

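With edgeR, 11 of the 34 genes were called in the averaged DSS comparison, 7 in WT, 1 in LAO1KO, 0 in DKO and 0 in each genotype comparison and interaction. limma voom with library weights called 19 averaged, 14 in LAO1KO and 3 in DKO, 6 for LAO1KO against WT under water and 1 under DSS, 2 for DKO against WT under DSS and 2 averaged, 3 for DKO against LAO1KO, and 5 in the LAO1KO interaction, and over all genes it called 6224 averaged, against 2996 with edgeR. DESeq2 called 4 in LAO1KO and 2 in DKO, 1 for LAO1KO against WT under DSS, and 4 under water, 1 under DSS and 1 averaged for DKO against WT. With only the compared groups fitted, 2 were called in WT, 0 in LAO1KO and 1 in DKO, where the smaller fits have fewer residual degrees of freedom, and over all genes 1083 in WT, against 2428. That setting does not apply to the averaged DSS comparison, which uses every group. Without WT water B and LAO1KO water A, a choice made after seeing the data, 2 were called in LAO1KO, 1 in DKO, 1 for DKO against WT averaged and 1 under water. With LAO1KO DSS B and DKO DSS B also left out, 7 were called averaged and 2 in LAO1KO, and over all genes 1967 averaged.

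Leaving out 1 library at a time gave 9 to 15 calls averaged, 2 to 12 in WT, 0 to 2 in LAO1KO and 0 to 1 in DKO. It gave 0 to 1 for LAO1KO against WT under water, 0 to 1 for DKO against WT averaged and 0 to 5 under water, where the 5 came without WT water C. Hif1a in WT, at -1.07 and not called, was between -1.42 without WT water A and 0.0441 without WT water B, and it was 0.0448 without the 2 and 0.0464 without the 4 libraries named above. The cause of these changes was not tested. RLE factors, no filter and leaving out mitochondrial mRNAs gave 13, 10 and 13 calls averaged and 9, 8 and 9 in WT. Where a setting is given without its count over all genes, the member count does not show whether the members changed apart from the whole table.

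The replicate block, fitted because the groups share the letters A, B and C, gave 13 calls averaged, 8 in WT and 2 in LAO1KO, where P4ha1 was added to Gbe1. Over all pairs of groups, same-letter libraries had correlations of deviations from the group means between -0.30 and 0.32, with 13 of 45 over 0.1, and the letters were not taken as pairs. Only between the WT groups were all 3 same-letter pairs over 0.1, and a block within the WT libraries alone, chosen after seeing the data, called the same 7 genes in WT. Between the DKO groups same-letter pairs also lay above different-letter pairs, at 0.07 to 0.26, against -0.20 to 0.04. No block was fitted within DKO alone. Slc16a3 and Adm, the scarcest members per library, had SEs of 0.29 and 0.24 averaged, and Hif1a had 0.25, and how far depth limits them was not tested. A failed test there does not show that the values were alike.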
